A study of Mus musculus with 6 samples.

Results

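Genes of cholesterol synthesis and of fatty acid synthesis were examined in mouse inguinal lymph nodes, the nodes of the groin, which are embedded in fat. The set holds 32 genes of the 50559 in the table, taken by symbol from what is known of the pathway and not by their measured values. Of these, 19 encode enzymes that build sterols, 5 encode proteins that regulate sterol synthesis or carry sterols, and 8 encode enzymes that make or modify fatty acids. All 32 were found, and all 32 passed the minimum of a mean of 1 CPM (reads per 1000000) over the 6 libraries, as did 14873 genes in all. The groups were 3 samples labelled Control and 3 that had received naringin, a bitter flavanone glycoside of grapefruit, at 200 mg/kg per day mixed into the food. The sources used here do not give strain, genotype, age, sex, length of feeding or what Control mice ate. The labels do not say whether a group's samples came from separate animals, so p-values measure only the spread between these samples, which may be technical.

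Cells build cholesterol from acetyl-CoA by way of mevalonate, the isoprenoid units, squalene and lanosterol. The enzymes of this route are transcribed together under the sterol regulatory element binding proteins, encoded by Srebf2 and Srebf1, of which the first acts mainly on sterol genes and a form of the second mainly on fatty acid genes. Both are made as precursors in the endoplasmic reticulum, where Scap escorts them to be cut and Insig1 holds them back when sterol is plentiful. Dividing lymphocytes need sterols and fatty acids for new membranes, and naringin has been studied for its effect on blood lipids.

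Neither sterol synthesis nor fatty acid synthesis genes were called higher or lower with naringin. Of the 32 genes, 14 had a fold above 0 and 18 below 0, with a median log2 fold of -0.03, against 8431 above 0, 6442 below 0 and a median of 0.02 over all 14873 genes tested. All folds are Naringin minus Control on the log2(CPM + 1) scale, which understates the change of low genes. By limma with Benjamini-Hochberg adjustment over all genes tested, 0 of the 32 passed an adjusted p of 0.05, as did 0% of all genes. With all libraries and the settings given here, none of the 32 reached an unadjusted p of 0.05 in limma either, a level passed by 1.43% of all genes, and the smallest unadjusted p was 0.0586, for Scd1. The edgeR quasi-likelihood test on reads recovered from the table also called 0 of the 32 and 0% of all genes, and DESeq2 called 0 of the 32 and 0.0202% of all genes. An unadjusted p under 0.05 was reached by 1 to 3 of the 32 genes in 8 of the 18 alternatives. Scd1 reached it with TMM scaling (as did 1.57% of all genes), quantile normalization (1.55%), no filter on low values (2.14%) and DESeq2 (1.53%). Scd1 and Fdft1 reached it with an adipocyte covariate (1.99%), and Fdft1 without Control 1 (1.16%). Without Control 2 the genes were Scd1, Idi1 and Sc5d (1.73%), and without Control 3 they were Scd1, Acaca and Scap (9.35%).

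Every one of the 32 limma 95% intervals, each taken for its gene alone, held 0. None reached a 2-fold change (a log2 fold of 1) in either direction: the lowest bound was -0.75, for Tm7sf2, and the highest was 0.86, for Elovl6. In 16 of the 32 the interval lay within a log2 fold of -0.5 to 0.5. Differences within these intervals remain possible, and the result does not show that the groups were alike. In RNA from a whole node, fewer cells of a type and less RNA per cell cannot be told apart.

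**Figure D1:**
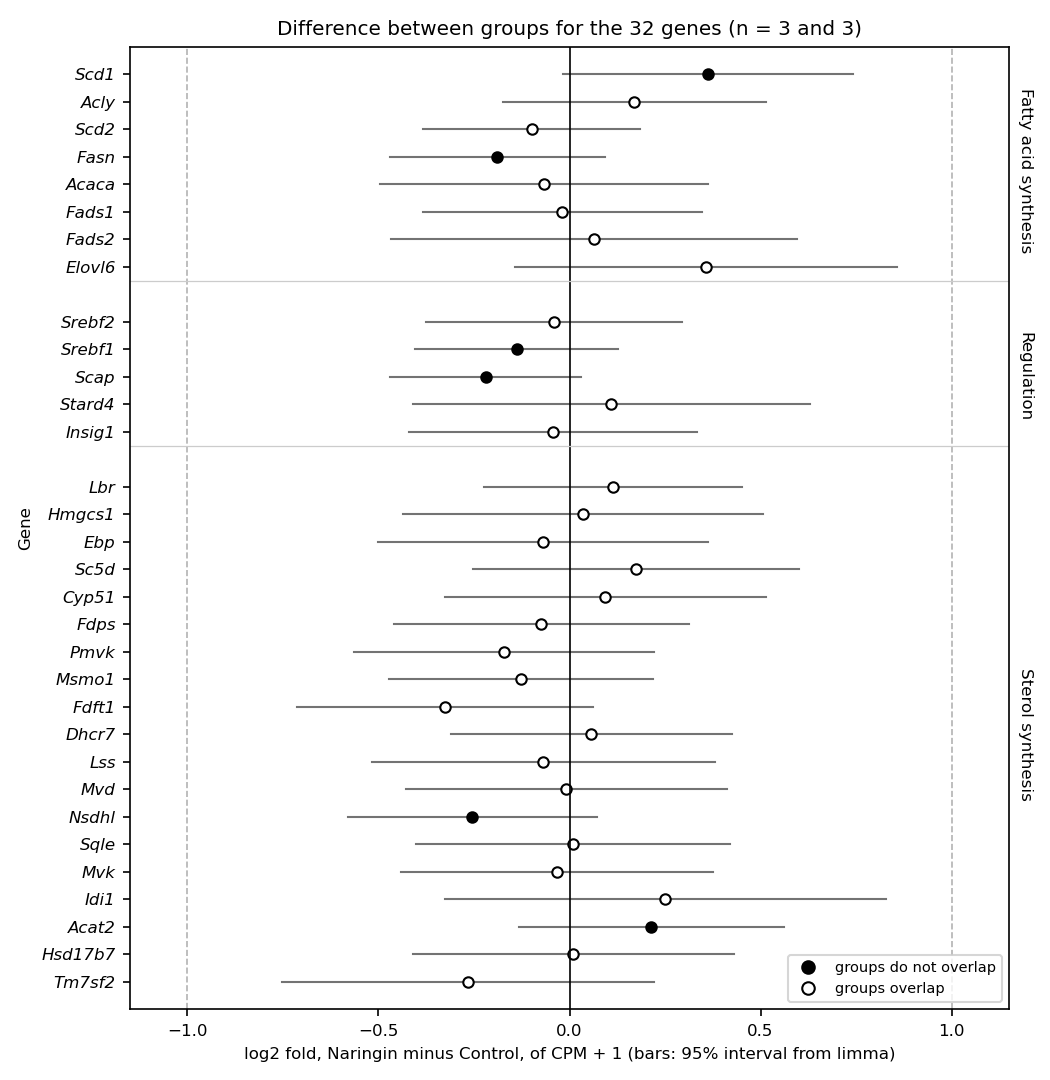
Log2 fold of each of the 32 genes, Naringin minus Control, on the horizontal axis, with 1 gene per line and bars for limma's 95% interval (3 libraries per group, dashed lines at a log2 fold of -1 and 1). All 32 bars cross 0 and none reaches a dashed line, and the 6 filled points mark genes whose Naringin and Control values do not overlap.

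In 6 of the 32 genes the groups did not overlap. Every naringin value exceeded every control value in 2 of the 32 (6.25%, against 3.36% of all genes tested), Scd1 and Acat2. They lay below them in 4 of the 32 (12.5%, against 2.29% of all genes tested), Scap, Srebf1, Nsdhl and Fasn. The gap between the groups was larger than the counting error of the 2 libraries beside it in 2 of these genes. It was 30.0 CPM for Scd1, with a counting SD of 8.29 CPM, and 8.75 CPM for Scap, with a counting SD of 3.35 CPM. For Acat2, Nsdhl, Srebf1 and Fasn the gaps were 0.829, 0.997, 0.794 and 0.833 CPM, with counting SDs of 1.16, 1.37, 3.96 and 4.64 CPM. Under upper-quartile scaling the counts became 1 higher and 5 lower, since Acat2 then overlapped and Scd2 did not, against 2.35% and 3.08% of all genes under that scaling. TMM scaling gave 2 and 4 (3.58% and 2.23% of all genes), and so did median-of-ratios scaling (2.94% and 2.57%).

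Reads assigned to genes ranged from 13074180 to 14976422 a library, and a single read was worth 0.0668 to 0.0765 CPM. A member had from 90 reads, for Tm7sf2, to 8728 reads, for Scd1, in a library. Node markers were high, with the T cell receptor component Cd3e at 156 to 248 CPM and the B cell receptor component Cd79a at 718 to 963 CPM, while the keratin Krt14 and the muscle actin Acta1 had at most 4 and 6 reads. The summed level of 8 macrophage markers was uneven within both groups, at 802, 1000 and 1541 CPM in Control 1, 2 and 3 and at 1979, 1289 and 596 CPM in Naringin 1, 2 and 3. Markers of adipocytes, a cell type rich in lipogenic enzymes, summed to 160 CPM in Control 1 and to between 68.2 and 98.2 CPM in the other libraries. Of these 13 adipocyte markers 10 were tested, 9 of them with a fold below 0, and the defining Adipoq was highest in Control 1, at 4.05 CPM, and lowest in Naringin 3, at 0.770 CPM. The part of these cells in the values below was not tested, other than by the adipocyte covariate named with the alternatives.

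The first steps of sterol synthesis join acetyl-CoA units and turn them into isoprenoids. Hmgcs1, the synthase that makes HMG-CoA, lay at 44.0, 60.9 and 33.1 CPM in Control 1, 2 and 3. With naringin it lay at 43.7, 45.9 and 47.6 CPM, so that Control held both the highest and the lowest library and the naringin values fell between them. The log2 fold was 0.04 ± 0.21 (SE), with an interval of -0.44 to 0.51. Idi1, the isomerase of the isoprenoid unit, was as uneven in Control, at 9.255, 14.5 and 6.95 CPM, and lay at 10.7, 11.5 and 13.6 CPM with naringin. Its groups overlapped, and the log2 fold was 0.25 ± 0.25, with 0.029 without Control 3 and 0.51 without Control 2. It had the widest relative spread within groups of the 32 genes, a coefficient of variation (CV) of 26.5%.

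Acat2, the cytosolic thiolase at the head of the pathway, was the sterol synthesis gene whose naringin values all lay above Control. It lay at 8.872, 9.325 and 9.557 CPM in Control and at 10.4, 10.7 and 11.6 CPM with naringin. Its naringin mean was 118% of the control mean, with a log2 fold of 0.21 ± 0.15 (interval -0.13 to 0.56) and an unadjusted p of 0.193 in limma. Mvk, the kinase of mevalonate, averaged 12.0 ± 2.03 CPM in Control against 11.6 ± 1.19 CPM with naringin (SD, n = 3, as for all means below). Pmvk, the next kinase, averaged 28.8 ± 3.62 and 25.6 ± 4.64 CPM. Mvd, the decarboxylase that follows it, averaged 15.0 ± 3.12 and 14.7 ± 1.14 CPM. Fdps, which builds farnesyl diphosphate, averaged 29.8 ± 5.29 CPM in Control against 28.1 ± 3.65 CPM with naringin, and the groups overlapped in these 4 genes. Of the exon bases of Fdps, 26.7% are shared with Gm43738 on the same strand in the GENCODE M21 annotation.

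The squalene steps commit farnesyl diphosphate to sterols. Fdft1, squalene synthase, had the most negative fold of the 32 genes. It lay at 20.4, 27.7 and 27.7 CPM in Control 1, 2 and 3 and at 18.1, 18.8 and 22.7 CPM with naringin. Control 1 lay between the naringin values, so the groups overlapped, and the log2 fold was -0.33 ± 0.17 (interval -0.71 to 0.06), or -0.49 with the adipocyte covariate. Of the exon bases of Fdft1, 18.3% lie opposite exons of the protease gene Ctsb in GENCODE M21, and the sources used here do not give the strand setting of the counting. Ctsb lay at 975, 771 and 1810 CPM in Control and at 1785, 1168 and 635 CPM with naringin. Ctsb was thus high in Control 3 and Naringin 1, while Fdft1 was highest in Control 3 and lowest in Naringin 1. The part of Ctsb reads in the level of Fdft1 was not tested.

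Sqle, which adds the oxygen to squalene, lay at 12.2, 16.3 and 12.4 CPM in Control and at 12.2, 12.9 and 16.0 CPM with naringin. The groups covered nearly the same range, and the log2 fold was 0.01 ± 0.18. Lss, which closes the rings to make lanosterol, averaged 15.5 ± 3.78 CPM in Control against 14.6 ± 1.76 CPM with naringin. None of the 3 squalene genes passed the threshold in limma.

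The later enzymes trim lanosterol to cholesterol. Nsdhl, a dehydrogenase of the demethylation steps, was the gene of this group with groups that did not overlap. It lay at 15.8, 15.4 and 14.2 CPM in Control and at 11.7, 12.6 and 13.2 CPM with naringin, 82.8% of the control mean. The log2 fold was -0.25 ± 0.14 (interval -0.58 to 0.07), with an unadjusted p of 0.111 in limma. Msmo1 and Hsd17b7 act in the same demethylation steps and had overlapping groups. Msmo1 averaged 24.7 ± 2.20 CPM in Control against 22.6 ± 3.06 CPM with naringin. Hsd17b7 averaged 9.40 ± 1.84 and 9.39 ± 0.697 CPM.

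Cyp51, the lanosterol demethylase, averaged 33.3 ± 6.36 CPM in Control against 35.6 ± 6.56 CPM with naringin. Sterol reductases of the next step are encoded by Tm7sf2 and by Lbr, a protein of the inner nuclear membrane that also binds chromatin. Tm7sf2 averaged 9.24 ± 1.70 CPM in Control against 7.54 ± 1.67 CPM with naringin, a log2 fold of -0.27 ± 0.21, which was -0.46 with the adipocyte covariate and -0.13 without Naringin 2. Of its exon bases, 12.1% are shared with Vps51 on the same strand in GENCODE M21, so its reads may be divided between the genes. Lbr averaged 189 ± 29.3 CPM in Control, where Control 3 lay at 155 CPM and the others at 205 and 206 CPM, and 203 ± 9.67 CPM with naringin. Ebp, the isomerase that moves the ring double bond, averaged 39.3 ± 11.1 CPM in Control, with Control 3 at 52.1 CPM, and 36.6 ± 1.69 CPM with naringin. Sc5d, a desaturase, averaged 34.7 ± 8.91 and 38.6 ± 3.95 CPM. Dhcr7, a last reductase of the pathway, averaged 21.9 ± 1.92 and 22.9 ± 4.00 CPM, and all of these groups overlapped. Over the 19 sterol synthesis genes, 9 folds were above 0 and 10 below, with a median of -0.01 and a range of -0.33 to 0.25.

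**Figure D2:**
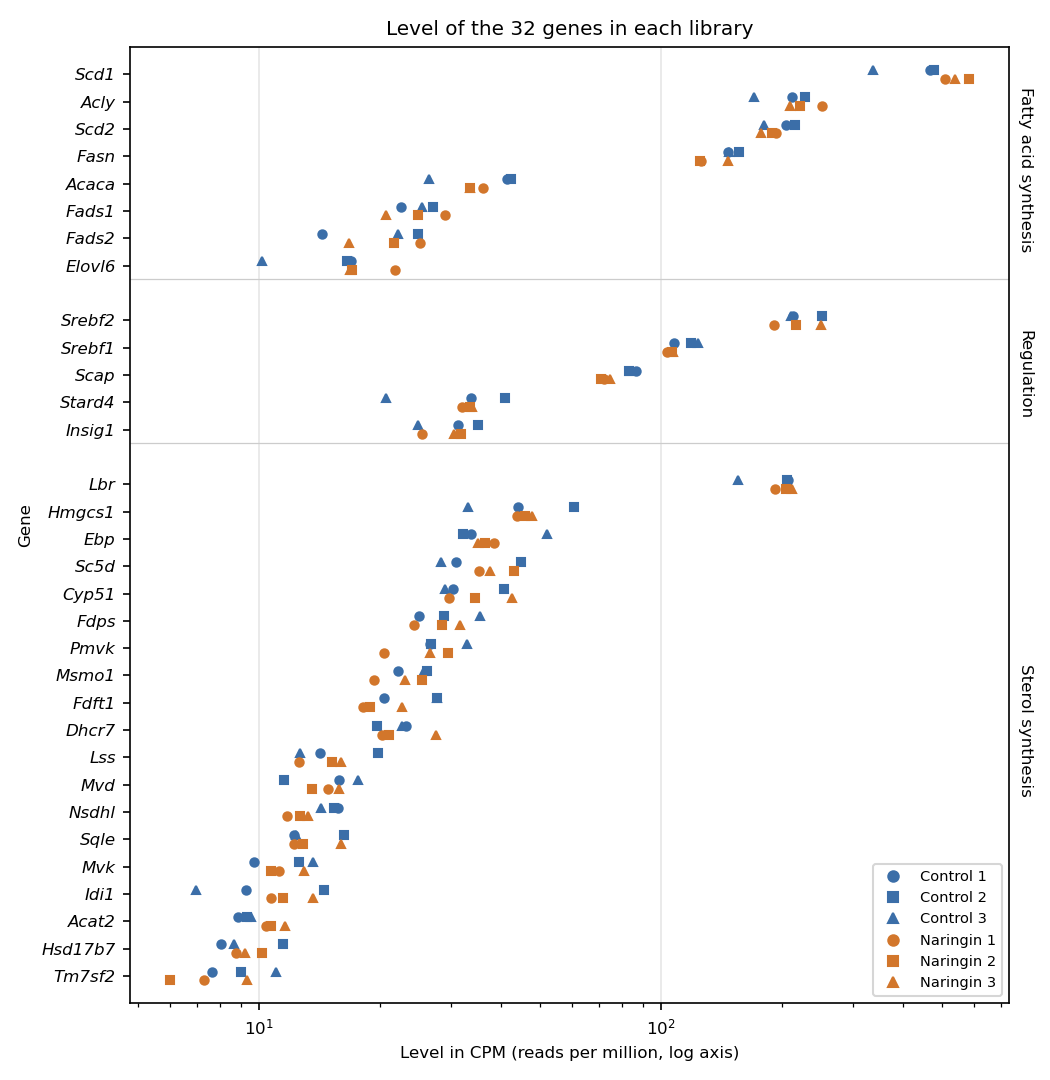
Level of each of the 32 genes in CPM (log axis) in the 6 libraries, with Control in blue, Naringin in orange and replicates 1, 2 and 3 as circles, squares and triangles. Only Scd1, Fasn, Srebf1, Scap, Nsdhl and Acat2 have groups that do not overlap, and Control 3 is the lowest point in Idi1, Hmgcs1, Stard4, Scd1 and Elovl6.

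Promoter sequences of the genes were searched for sites known to act with the sterol regulatory factors, to show what the members share beyond their enzymes. RefSeq windows on build GRCm38.p6, 250 bases before to 50 after a start, were matched for 25 of the 32 genes (31 windows). The motifs were searched on both strands: a sterol element, TCACNCCAC; the E-box TCACGTGA; the CCAAT box; and the GC box GGGCGG, the last 2 bound by the usual partners NF-Y and Sp1. In the 250 bases before the start printed here, capitals mark the sterol element and the CCAAT box, which reads ATTGG on the other strand. Hmgcs1 is shown as the gene with a match to the sterol element, Mvk for its many CCAAT boxes, and Fasn as a fatty acid gene whose groups did not overlap.
Hmgcs1, chr13:119690101-119690350, plus strand: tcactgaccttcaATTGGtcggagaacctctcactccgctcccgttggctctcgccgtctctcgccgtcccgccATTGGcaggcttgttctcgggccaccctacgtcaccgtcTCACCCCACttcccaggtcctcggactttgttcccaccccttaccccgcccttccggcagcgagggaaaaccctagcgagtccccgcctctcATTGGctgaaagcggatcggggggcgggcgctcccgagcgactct
Mvk, chr5:114444019-114444268, plus strand: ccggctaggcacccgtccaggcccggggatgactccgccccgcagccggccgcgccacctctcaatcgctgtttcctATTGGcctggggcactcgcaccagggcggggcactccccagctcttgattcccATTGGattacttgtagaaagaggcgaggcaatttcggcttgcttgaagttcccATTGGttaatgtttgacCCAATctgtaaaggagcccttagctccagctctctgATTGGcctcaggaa
Fasn, chr11:120824548-120824797, minus strand: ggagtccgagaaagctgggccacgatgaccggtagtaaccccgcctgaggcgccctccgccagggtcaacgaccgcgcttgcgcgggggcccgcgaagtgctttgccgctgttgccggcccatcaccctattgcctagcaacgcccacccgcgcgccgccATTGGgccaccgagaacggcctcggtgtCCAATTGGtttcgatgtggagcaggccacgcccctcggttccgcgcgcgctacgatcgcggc

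The sterol element of Hmgcs1 began 137 bases before the start, and its window held 4 CCAAT boxes, of which 1 lies past the start and is not printed. Mvk held 5 CCAAT boxes in its window, the last beginning 14 bases before the start. Fasn held 3, of which 2 overlap in the run of 8 capitals. Over the set, 20 of 25 genes (80%) had a CCAAT box in a window, against 42.4% of the 11298 tested genes with a window. Counted by window, 67.7% of the 31 windows of the set had it, against 37.4% of all 32851 windows. A GC box was found in 21 of 25 genes (84%), against 64.8% of tested genes. The sterol element was found in 1 of 25 genes (4%), against 1.41% of tested genes. By window it was found in 3.23% of the 31, against 1.24% of all windows. The E-box was found in 0 of 25 genes, against 2.10% of tested genes. A match describes letters in the window, and a missing match says only that these letters are not in it. The genes of these 3 promoters, Hmgcs1, Mvk and Fasn, had log2 folds of 0.04, -0.03 and -0.19, and none was called.

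The regulators were examined next. Srebf2, the main factor for sterol genes, lay at 213, 250.5 and 209.9 CPM in Control 1, 2 and 3 and at 190.4, 216 and 249.8 CPM with naringin. The groups overlapped almost fully, with a log2 fold of -0.04 ± 0.15. Srebf1, the factor for fatty acid genes, lay at 108, 119 and 124 CPM in Control and at 103, 107 and 107 CPM with naringin. All naringin values were below all control values, at 90.6% of the control mean, with a log2 fold of -0.14 ± 0.12 (interval -0.41 to 0.13). The table counts reads per gene, so transcripts from different Srebf1 starts cannot be told apart.

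Scap, the escort of both factors, had the lowest spread within groups of the 32 genes, a CV of 2.39%. It lay at 86.8, 83.3 and 83.9 CPM in Control and at 72.3, 70.8 and 74.6 CPM with naringin. The groups were clear of each other and the naringin mean was 85.7% of the control mean. The log2 fold was -0.22 ± 0.11 (interval -0.47 to 0.03), with an unadjusted p of 0.0780 and an adjusted p of 0.9996 in limma. Counting alone gives an expected CV of 2.98% for this gene. The CV within groups was also below that of counting for Nsdhl (5.63% against 7.12%) and Acat2 (5.16% against 8.31%). With 3 libraries per group, these CVs are themselves imprecise. Of the exon bases of Scap, 13.2% lie opposite exons of the gene 5830462I19Rik in GENCODE M21. The part of reads from that gene in the level of Scap was not tested.

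Insig1, the protein that retains Scap, lay at 31.2, 35.1 and 24.8 CPM in Control and at 25.5, 31.7 and 30.6 CPM with naringin. Stard4, a carrier of cholesterol between membranes, lay at 33.7, 40.8 and 20.7 CPM in Control and at 31.96, 33.5 and 33.8 CPM with naringin. In both genes the control values spread around the naringin values, and the log2 folds were -0.04 ± 0.16 and 0.11 ± 0.23. Without Control 3 the log2 fold of Stard4 was -0.16. Of the 5 regulation and transport genes, 1 fold was above 0 and 4 were below, with a median of -0.04.

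Fatty acid synthesis starts from citrate, which Acly splits to give acetyl-CoA. Acly lay at 211, 227 and 169.9 CPM in Control and at 251, 222 and 209 CPM with naringin, and the groups overlapped with a log2 fold of 0.17, which was 0.048 without Control 3. Acaca, the carboxylase that makes malonyl-CoA, averaged 36.8 ± 8.89 CPM in Control against 34.4 ± 1.41 CPM with naringin. Its Control 3 value of 26.5 CPM lay below all others and the other control values, 41.5 and 42.4 CPM, above all naringin values. The log2 fold was -0.07 with all libraries and -0.28 without Control 3, where its adjusted p was 0.44 in limma. Fasn, the synthase itself, lay at 147, 157 and 148 CPM in Control and at 125, 125 and 146 CPM with naringin. Its values did not overlap, by the margin of 0.833 CPM given above, and its log2 fold was -0.19 ± 0.12 (interval -0.47 to 0.09).

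Scd1, the desaturase that makes oleate from stearate, was the most strongly expressed of the 32 genes and had the smallest p. It lay at 466, 478 and 336 CPM in Control 1, 2 and 3. With naringin it lay at 508, 583 and 539.5 CPM, above every control value, and the naringin mean was 127% of the control mean. The log2 fold was 0.36 ± 0.17 (interval -0.02 to 0.74), with an unadjusted p of 0.0586 and an adjusted p of 0.9996 in limma. Without Control 3, the lowest library, it was 0.20. Scd2, a close paralog of Scd1, lay at 205, 215 and 180.0 CPM in Control and at 193, 188 and 177 CPM with naringin. Its log2 fold was -0.10, of the opposite sign to that of Scd1. The sources used here do not say how reads common to the paralogs were counted.

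Elovl6, which lengthens palmitate to stearate and so supplies Scd1, had the other large positive fold. It lay at 16.9, 16.6 and 10.2 CPM in Control and at 21.8, 17.0 and 16.9 CPM with naringin. Naringin 3 lay just under Control 1, so the groups touched, and the log2 fold was 0.36 ± 0.22 (interval -0.14 to 0.86). As for Scd1, Control 3 was the lowest library, and without it the log2 fold of Elovl6 was 0.13. The desaturases of polyunsaturated fatty acids differed less. Fads2 lay at 14.3, 24.9 and 22.2 CPM in Control and at 25.1, 21.6 and 16.7 CPM with naringin. Fads1 averaged 25.0 ± 2.27 CPM in Control against 24.8 ± 4.14 CPM with naringin. In both genes Naringin 1 was the highest and Naringin 3 the lowest naringin library, and the groups overlapped. Over the 8 fatty acid genes, 4 folds were above 0 and 4 below, with a median of 0.02.

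Summed over each group of genes, the libraries overlapped in all 3. The 19 sterol synthesis genes summed to 564, 633 and 549 CPM in Control and to 542, 591 and 624 CPM with naringin. The 5 regulation and transport genes summed to 472, 528 and 463 CPM in Control and to 424, 459 and 496 CPM with naringin. In both sums Control 2 was the highest control library, and Naringin 1 was the lowest of all 6. The 8 fatty acid genes summed to 1124, 1188 and 918 CPM in Control and to 1190, 1215 and 1159 CPM with naringin, with Control 3 apart at the low end. As shares of a library, these sums are led by their strongest genes. Markers of cell division, which draws on these pathways, summed to between 721 and 804 CPM in Control and between 748 and 827 CPM with naringin.

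**Figure D3:**
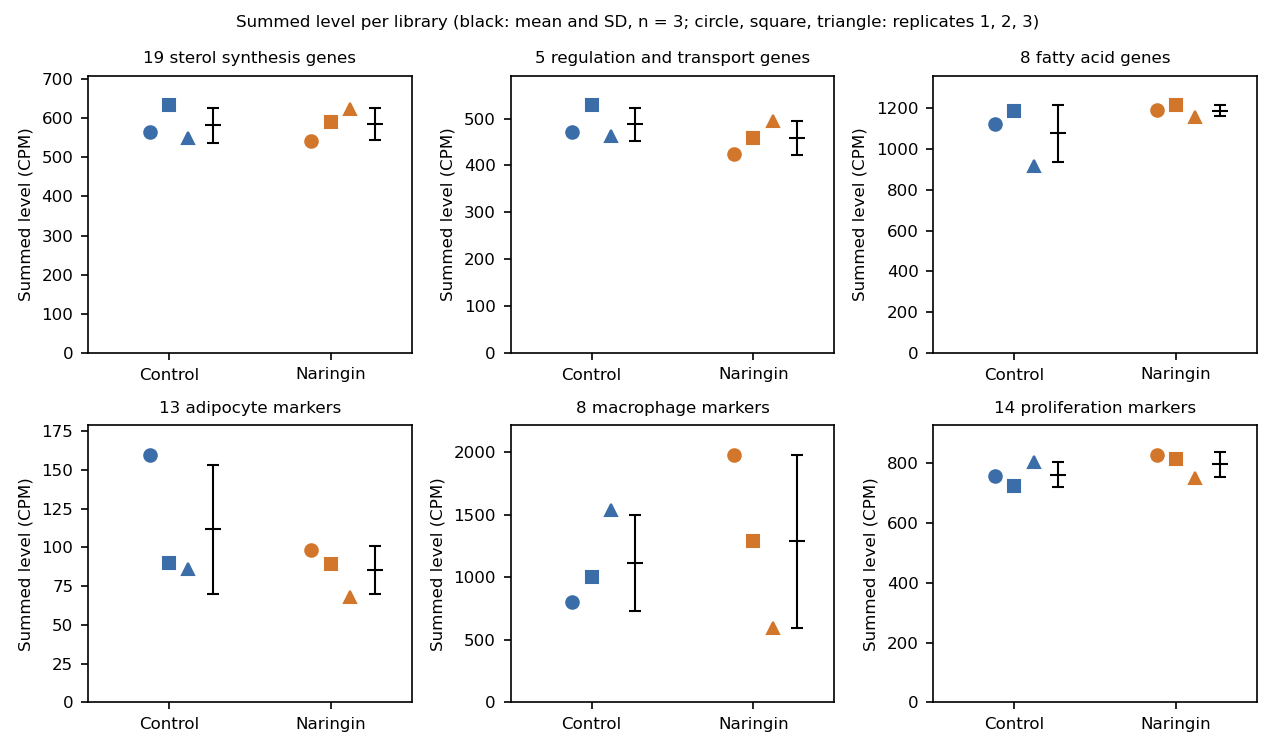
Summed CPM of the 3 groups of genes and of adipocyte, macrophage and proliferation markers in each library, with black bars for the mean and SD of 3 libraries. The groups overlap in every panel; Control 3 is lowest for the fatty acid genes, Control 1 highest for the adipocyte markers, and the macrophage markers run from 596 CPM in Naringin 3 to 1979 CPM in Naringin 1.

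Single libraries stood out within the groups. Control 2 was the highest library in 13 of the 32 genes (40.6%), against 20.5% of all genes tested, among them Hmgcs1, Idi1, Sqle, Stard4, Insig1 and Srebf2. Control 3 was the lowest in 11 (34.4%), against 36.6% of all genes, and the highest in 8 (25.0%), against 24.0%. It was thus an extreme library over the whole table as well as here. Naringin 1 was the lowest library in 9 of the 32 genes (28.1%), against 13.04% of all genes, 7 of them among the 19 sterol synthesis genes. In the fatty acid genes it was instead the highest, in 4 of 8, while Control 3 was the lowest in 4 of 8. Sterol and fatty acid genes thus differed in which library stood lowest, which was described and not tested.

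**Figure D4:**
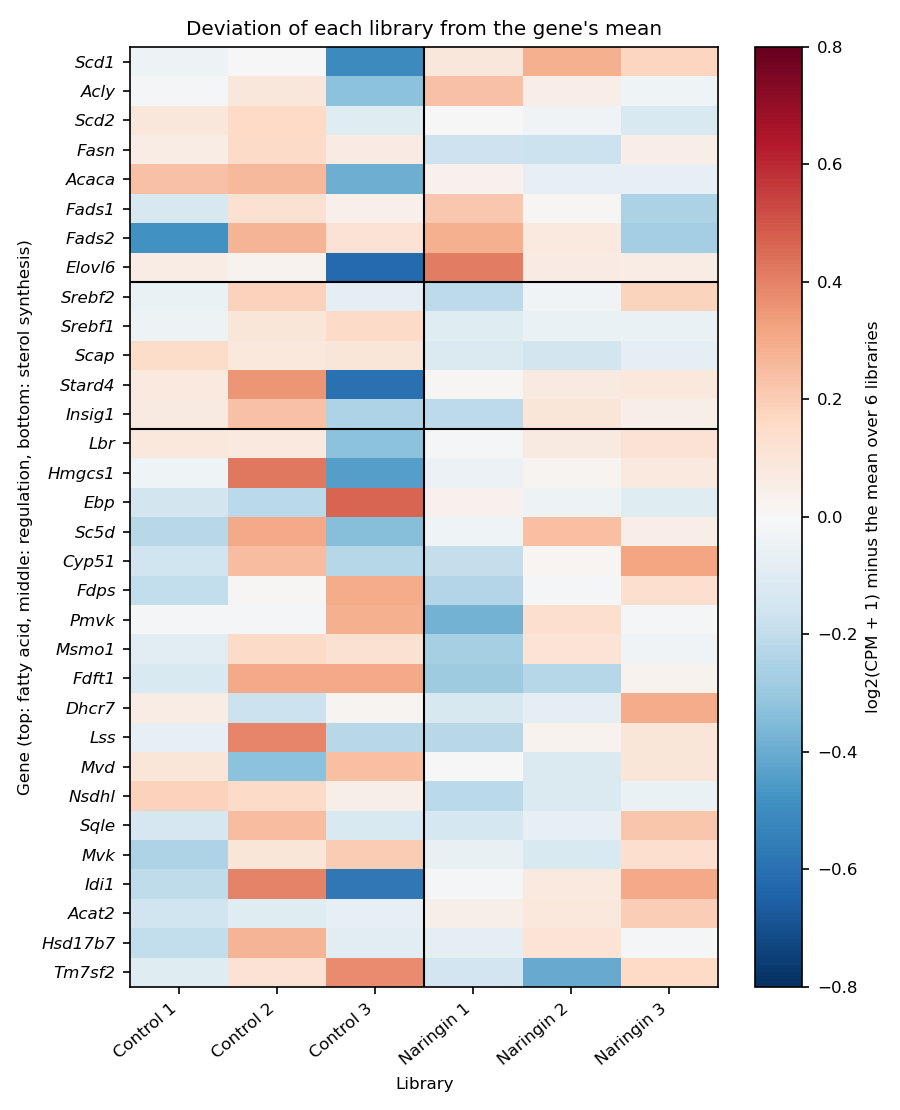
Deviation of each library (columns) from the gene's mean over 6 libraries in log2(CPM + 1), by gene (lines), red above and blue below the mean. Control 3 holds strong blues, in Scd1, Elovl6, Stard4 and Idi1, beside reds in Ebp and Tm7sf2, and Control 2 is the highest library in 13 of the 32 genes.

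Deviations were also set against transcript length, here taken as a library's log2(CPM + 1) minus the gene's mean over the other libraries. In Control 3 the Spearman rank correlation of the deviation with exon length was -0.38 over the 32 genes, which share 1 library and its depth. The same value was 0.33 in Control 1, 0.26 in Control 2, and -0.01, -0.12 and -0.06 in Naringin 1, 2 and 3. The 16 genes shorter than the median exon length of 4839 bases had a median deviation of 0.10 in Control 3, and the 16 longer ones -0.13. The part of length in the comparison of the groups was not tested. With Control 3 left out, 0 of the 32 genes passed the adjusted threshold in limma, as against 0.00672% of all genes.

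Levels between genes were compared per length, as CPM per kb of the exons of all transcripts of a gene in GENCODE M21. On this scale Scd1 was the highest, with a mean of 99.2 over the 6 libraries and a range of 68.8 to 119. Lbr (41.1), Acly (40.7), Scd2 (35.3) and Srebf2 (30.8) followed, and Srebf1 (19.7) was the next below them. Among dedicated sterol enzymes other than Lbr, Ebp (16.4) and Pmvk (15.9) were the highest and Lss (1.40) was the lowest of all 32. Hmgcs1 (9.98) stood above Sqle (2.46) and Idi1 (3.16). Lengths that merge the exons of all transcripts overstate the length of genes with many isoforms, so these levels are approximate.

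Other genes of the pathway, from lists that were chosen with earlier results of these data known, were not called either. Of 16 further sterol pathway genes 15 were tested, with 10 folds above 0 and 5 below, a median of 0.07 and 0 called. Rnf139, a ubiquitin ligase of the endoplasmic reticulum, had a log2 fold of 0.17 ± 0.15. Of 10 genes of the isoprenoid branches, which lead to dolichol, ubiquinone and prenylated proteins, 9 were tested, with 8 folds above 0 and 1 below, a median of 0.08 and 0 called. Nus1, a subunit of the dolichol synthase, averaged 59.9 ± 12.5 CPM in Control against 70.2 ± 4.84 CPM with naringin. Fntb, a subunit of farnesyltransferase, was the gene with the fold below 0, at -0.19 ± 0.15.

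Of 21 further lipogenic and glycerolipid genes 19 were tested, with 12 folds above 0 and 7 below, a median of 0.05 and 0 called. Elovl7, another fatty acid elongase, averaged 4.08 ± 0.950 CPM in Control against 6.23 ± 1.45 CPM with naringin, a log2 fold of 0.51 ± 0.23. Gpam, the acyltransferase that begins triglyceride synthesis, averaged 34.9 ± 6.61 and 43.4 ± 6.02 CPM, a log2 fold of 0.31 ± 0.17. Both overlapped between the groups, as Control 2 lay above the lowest naringin library. Mid1ip1, which promotes the assembly of the carboxylase, was the gene among the 19 tested whose naringin values lay below all control values. It averaged 33.6 ± 2.72 CPM in Control against 29.6 ± 0.685 CPM with naringin, a log2 fold of -0.18, and was named after its values were seen.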

How the data were processed

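RNA from 6 lymph node samples (3 Control, 3 Naringin) was purified on RNeasy columns and made into NEBNext Ultra libraries from 1 µg of total RNA, per the labels' protocols. Build mm39, STAR 2.7.9a, Trimmomatic 0.39, featureCounts, Subread 1.6.0 and edgeR 3.40.0 are named in the submitters' processing notes. The sources used here give no annotation, strand setting or treatment of shared reads. The authors deposited CPM values: each column summed to 1000000, with no further scaling. These are shares, so genes that change much shift the rest. Dividing by the smallest step gave whole reads for 100% of values within 0.01 of a read.

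Means of at least 1 CPM were required (14873 of 28727 genes with a read), and log2(CPM + 1) was tested with limma 3.58.1 in R 4.3.3 (trend and robust moderation, 2-sided, Benjamini-Hochberg adjustment over all genes tested, threshold 0.05). SEs and 95% intervals are limma's. Counting SDs and CVs are Poisson and cover counting error only. No 2 libraries were alike within sampling noise, with a chi-square per degree of freedom of 7.68 or more. Pairs with Control 3 had the largest values, 39.3 to 61.6, while all other pairs had at most 27.7. Alternatives were edgeR 4.0.16 and DESeq2 1.42.0 on recovered reads, other scalings, filters and pseudocounts, a replicate block, an adipocyte covariate, and leaving out each library. CPM per kb and the relation with length were chosen after seeing the data. The steps were tested on simulated reads with 200 changed genes. There limma recovered 71% of the 2-fold changes, edgeR 70% and DESeq2 82%. False calls numbered 13 for limma, 9 for edgeR and 35 for DESeq2. Exon lengths and overlaps came from GENCODE M21, and promoters from RefSeq on GRCm38.p6, an older build than the files', so no other coordinates are given. In GENCODE M21, 12 of the 32 genes share exon bases with another gene, 9 of them with a gene on the opposite strand.

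The members were taken by pathway and not by their values. Both they and the lists were nevertheless chosen with earlier results of these data known. Values in every library are given for the 5 regulators, for Hmgcs1, Sqle, Idi1, Fdft1, Scd1, Scd2, Fasn, Acly and Fads2, and for the 3 members with the smallest p in each direction, and the others by mean and SD. Of each context list the 2 tested genes with the smallest p are named. A gene that this rule takes is not reported here.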

Additional observations from a re-analysis of the deposited data

How the results depend on the processing

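None of the 32 genes passed the adjusted threshold in any of the 18 alternatives. DESeq2 called 3 genes over the whole table, and leaving out 1 library called 0 to 1. Same-numbered samples did not deviate together, with correlations of their deviations of -0.257, -0.019 and -0.269. The labels do not say whether samples were paired, and these correlations cannot settle it, as deviations within a group depend on each other. A replicate block gave 0 calls in limma, with 157 genes at an unadjusted p under 0.05 against 213 without the block. The median of the 5 regulation genes ran from -0.16 without Control 3 to 0.050 without Naringin 1, that of the 8 fatty acid genes from -0.082 without Naringin 1 to 0.16 without Naringin 3, and that of the 19 sterol synthesis genes from -0.085 without Control 1 to 0.027 without Naringin 1. With the adipocyte covariate the sterol synthesis median was -0.089. The sign of the log2 fold held under every alternative in 15 genes and under every one with all libraries in 24, and the largest fold to change sign was that of Lbr, 0.1132. Hmgcs1 became -0.0071 with upper-quartile scaling, -0.0024 with quantile normalization, -0.0036 in edgeR and -0.017 in DESeq2. Sqle became -0.0098 with median-of-ratios, -0.031 with upper-quartile, -0.041 with quantile, -0.089 with the adipocyte covariate and -0.0096 in DESeq2. Hsd17b7 became -0.0074, -0.028, -0.034 and -0.034 in that order, -0.0059 in edgeR and -0.019 in DESeq2. With the covariate Cyp51 became -0.0054, Dhcr7 -0.0045, Fads1 0.0082, Fads2 -0.0043 and Acaca 0.057, while Fdft1 moved to -0.49, Tm7sf2 to -0.46 and Acly to 0.26. The cause was not tested. Leaving out 1 library gave ranges of -0.18 to 0.26 for Hmgcs1, -0.10 to 0.13 for Sqle, -0.19 to 0.055 for Fdps, -0.20 to 0.11 for Lss, -0.04 to 0.24 for Cyp51, -0.076 to 0.14 for Dhcr7, -0.085 to 0.15 for Hsd17b7, -0.17 to 0.11 for Mvd, -0.16 to 0.060 for Mvk, -0.19 to 0.15 for Ebp, -0.022 to 0.18 for Lbr, -0.18 to 0.064 for Insig1, -0.14 to 0.054 for Srebf2, -0.16 to 0.31 for Stard4, -0.13 to 0.10 for Fads1, -0.16 to 0.22 for Fads2 and -0.28 to 0.047 for Acaca. Without a change of sign it gave 0.029 to 0.51 for Idi1, 0.046 to 0.37 for Sc5d, -0.41 to -0.13 for Tm7sf2, 0.048 to 0.26 for Acly, -0.28 to -0.026 for Pmvk and -0.21 to -0.024 for Msmo1. Depth limits the rarer genes most, with a counting CV of up to 9.12% per library.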

Other observations

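Genes that carry sterols out of cells, store them or turn them into signals were examined from lists chosen with earlier results of these data known, and 0 were called by limma. Of 11 LXR factors and efflux genes 9 were tested, with 5 folds above 0 and 4 below and a median log2 fold of 0.01. Myo1e, a motor protein of the actin cortex, averaged 101 ± 13.4 CPM in Control against 122.9 ± 11.0 CPM with naringin (SD, n = 3), a log2 fold of 0.29 ± 0.14 (SE). Abca1, the exporter that loads cholesterol onto lipoproteins, lay at 224, 232 and 161 CPM in Control and at 303, 250 and 170 CPM with naringin. Its groups overlapped, with a log2 fold of 0.21 ± 0.23. Apoe, which encodes an apolipoprotein, was chosen after its values were seen. It lay at 2659, 2897 and 5927 CPM in Control 1, 2 and 3 and at 4381, 3027 and 2041 CPM in Naringin 1, 2 and 3. The macrophage markers summed to 802, 1000 and 1541 CPM and to 1979, 1289 and 596 CPM in the same libraries, so in both Naringin 3 was the lowest naringin library and Control 3 the highest control library. The part of macrophages in the level of Apoe was not tested.

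Of 11 sterol storage and lysosomal export genes, all tested, 7 folds were above 0 and 4 below, with a median of 0.02. Gramd1b, which moves cholesterol from the plasma membrane inward, had a log2 fold of -0.21 ± 0.16, and Nceh1, a hydrolase of stored cholesteryl ester, had 0.26 ± 0.24. Oxysterols guide B cells within lymph nodes, and of 7 genes that make or sense them 6 were tested, 3 with a fold above 0 and 3 below. Ch25h, the cholesterol 25-hydroxylase, averaged 4.80 ± 2.10 CPM in Control against 7.19 ± 2.27 CPM with naringin, a log2 fold of 0.53 ± 0.31 with overlapping groups. Cyp27a1, the sterol 27-hydroxylase, had a log2 fold of -0.19 ± 0.17. Among the adipocyte markers Thrsp, a nuclear protein of lipogenic tissue, had a log2 fold of -0.54 and an unadjusted p of 0.0365 in limma, and Cfd, a secreted protease of fat, had -0.94. Among 14 proliferation markers, 11 with a fold above 0 and 3 below, Aurkb had -0.34 and Pcna 0.16. Of 8 T cell markers 7 were tested, all with a fold below 0 (median -0.22), and all 7 B cell markers had a fold above 0 (median 0.14). Folds were also above 0 in all 5 erythroid markers (median 0.49) and the 4 neutrophil markers tested (median 0.51). Plasma cell, macrophage, dendritic cell and stromal markers had both signs, and 0 were called in any list. Over all genes tested, 8431 folds were above 0 and 6442 below. Unadjusted p-values under 0.05 in limma were reached by 3 erythroid, 2 stromal and 1 T cell markers, against 1.43% of all genes.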
